A study of Rattus norvegicus with 12 samples.

Results

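Complement genes were followed through 12 RNA sequencing libraries of rat bone marrow cells. The set held 8 genes of the early complement cascade: C1qa, C1qb, C1qc, C1r, C1s, C3, Cfb and Serping1. Rows were taken by exact gene symbol from the authors' gene table of each of the 2 comparisons. Of the 8 symbols, 7 head a row among the 18616 genes of the BMSC table and 4 among the 19355 genes of the BF table. C1r, C1s, C3 and Serping1 were read in all 12 libraries, C1qa, C1qb and C1qc in the 6 BMSC libraries, and no row bears the name Cfb, which was therefore not analysed here. The table rows carry rat Ensembl gene IDs, namely ENSRNOG00000012807 for C1qa, ENSRNOG00000012749 for C1qb, ENSRNOG00000012804 for C1qc, ENSRNOG00000011796 for C1r, ENSRNOG00000011971 for C1s, ENSRNOG00000046834 for C3 and ENSRNOG00000007457 for Serping1.

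Complement is a cascade of blood and tissue proteins that marks particles for uptake and can lyse cells. In the classical branch, C1q, a recognition protein assembled from the C1qa, C1qb and C1qc chains, activates the proteases C1r and C1s, which cleave the next components until C3, the hub of all branches, is cut. The C1 inhibitor encoded by Serping1 blocks C1r and C1s, and Cfb supplies the protease of the alternative branch. C1q is known mainly as a product of macrophages and dendritic cells, whereas fibroblasts and other stromal cells also make C1r, C1s, C3 and the C1 inhibitor.

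The 4 groups had 3 libraries each, all from rats labelled wild type and all kept in a chondrogenic induction medium. BMSC-CT were bone marrow mesenchymal stem cells (BMSCs) exposed to CTGF, the connective tissue growth factor, over 1 week before TGF-beta1 was given; both proteins drive the making of matrix. BMSC-C were their controls. BF-D and BF-C are labelled as fibrotic BMSCs, which the series design calls induced fibrotic chondrocytes; BF-D received docetaxel, a microtubule-stabilising drug, and BF-C did not. Doses, animal ages and whether replicates came from separate animals or cultures are not given in the sources used here, so p-values measure only the spread between these libraries, which may be technical.

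Each library held 15580310 to 19870047 reads. BMSC-CT replicate 3 stood apart: 14621 genes had reads there, against at least 16100 in each other library, 15.5% of its reads came from ribosomal protein genes, against at most 6.64% elsewhere, and its values fell with gene length (Spearman rho of its deviations with length -0.37). BF-D replicate 2 leaned the same way among the BF libraries, with 2.89% ribosomal protein reads against at most 1.85% in the others. Results are therefore given with and without these libraries. The labelled mesenchymal cell type was checked with 10 marker genes, all of them listed in both tables. They took 0.586% to 1.24% of reads in BMSC-CT, 0.454% to 0.508% in BMSC-C, 4.65% to 5.72% in BF-D and 6.12% to 6.35% in BF-C. Col1a1 led that sum; without it the share was 0.147% to 0.403% in BMSC-CT, overlapping the 0.305% to 0.324% in BMSC-C. Macrophage markers, of which 15 of 16 were listed for BMSC and 14 for BF, took 1.11% to 1.40% in BMSC-CT and 0.891% to 1.06% in BMSC-C. They took only 0.0109% to 0.0116% in BF-D and 0.00835% to 0.00875% in BF-C, where Mrc1 was at 0 in every library. In every BMSC-C library macrophage markers took more reads than mesenchymal markers, and in every BF library fewer. The share of cells of each type was not measured. Lyz2 led the macrophage sum in BMSC. Without it the other macrophage markers took 0.418% to 0.470% in BMSC-CT, below the 0.505% to 0.607% in BMSC-C. Of these others Adgre1 was the highest in BMSC-C, at a mean of 46426 normalized counts, against 17359 in BMSC-CT. No share without both Lyz2 and Adgre1 was computed.

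The classical pathway proteases and C3 were lower after CTGF and TGF-beta1. C1s stood at 0.295 times, C1r at 0.432 times and C3 at 0.475 times its BMSC-C level, while the normalized counts of their inhibitor Serping1 overlapped between the groups. The C1q chains, present at a small fraction of the proteases' level, were also lower on average, but none of the 3 passed the test. In total 3 of the 7 genes measured were called lower and 0 higher by limma, at a Benjamini-Hochberg adjusted p under 0.05 over the 16818 genes with a mean of at least 1. Of all genes tested, 18.6% were called, 10.9% as lower and 7.70% as higher, and the median log2 fold change was -1.21 over the 7 genes and -0.15 over all genes. At an unadjusted p under 0.05, 5 of the 7 were lower and 0 higher, and of all genes 38.6% passed, 21.6% as lower and 17.0% as higher. In bulk RNA, fewer cells of a type and less RNA per cell cannot be told apart. Of the 10 mesenchymal markers, 3 were called lower with C1s, C1r and C3 and 3 higher by limma, with a median log2 fold change of -0.73. Those lower were Cxcl12 (-6.98), Pdgfra (-3.14) and Thy1 (-1.31), and those higher Col3a1 (2.99), Col1a1 (2.39) and Eng (1.23). Their part in the result was not tested.

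C1s, the protease that cleaves C4 and C2, had 3876, 3635 and 2684 normalized counts in the BMSC-CT libraries, against 11776, 12017 and 10459 in the BMSC-C libraries. The highest treated library was far below the lowest control. The log2 fold change was -1.76 (SE 0.22, n = 3 each), with a limma adjusted p of 0.00394. Leaving out each library in turn kept C1s called, with log2 fold changes between -1.87 and -1.60 and adjusted p between 7.42e-05 and 0.0369.

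C1r, the protease that activates C1s, had 5606, 5891 and 3417 normalized counts in BMSC-CT and 11866, 10666 and 11071 in BMSC-C. The groups were again apart, and BMSC-CT replicate 3 was the lowest of the 6. The log2 fold change was -1.21 (SE 0.26), with a limma adjusted p of 0.0256. The call was lost without BMSC-C replicate 1, 2 or 3 (adjusted p 0.115, 0.108 and 0.0860) and without BMSC-CT replicate 2 (0.0588), although the log2 fold change stayed between -1.35 and -0.96 over the 6 fits.

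C3, whose cleavage product coats targets, had 18441, 18696 and 12272 normalized counts in BMSC-CT and 36885, 32062 and 33297 in BMSC-C. Every treated library was below every control, by a log2 fold change of -1.07 (SE 0.25, limma adjusted p 0.0333). This call too was lost without BMSC-C replicate 1, 2 or 3 (adjusted p 0.143, 0.131 and 0.103) and without BMSC-CT replicate 2 (0.0824). With the dependence on gene length taken out of each library, the log2 fold change of C3 was -0.41 and its adjusted p 0.226; C3 is the longest of the genes measured, at 5188 bases in the authors' table. C1s (-1.39, adjusted p 0.00238) and C1r (-0.89, 0.0179) remained called by limma in that fit.

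**Figure D1:**
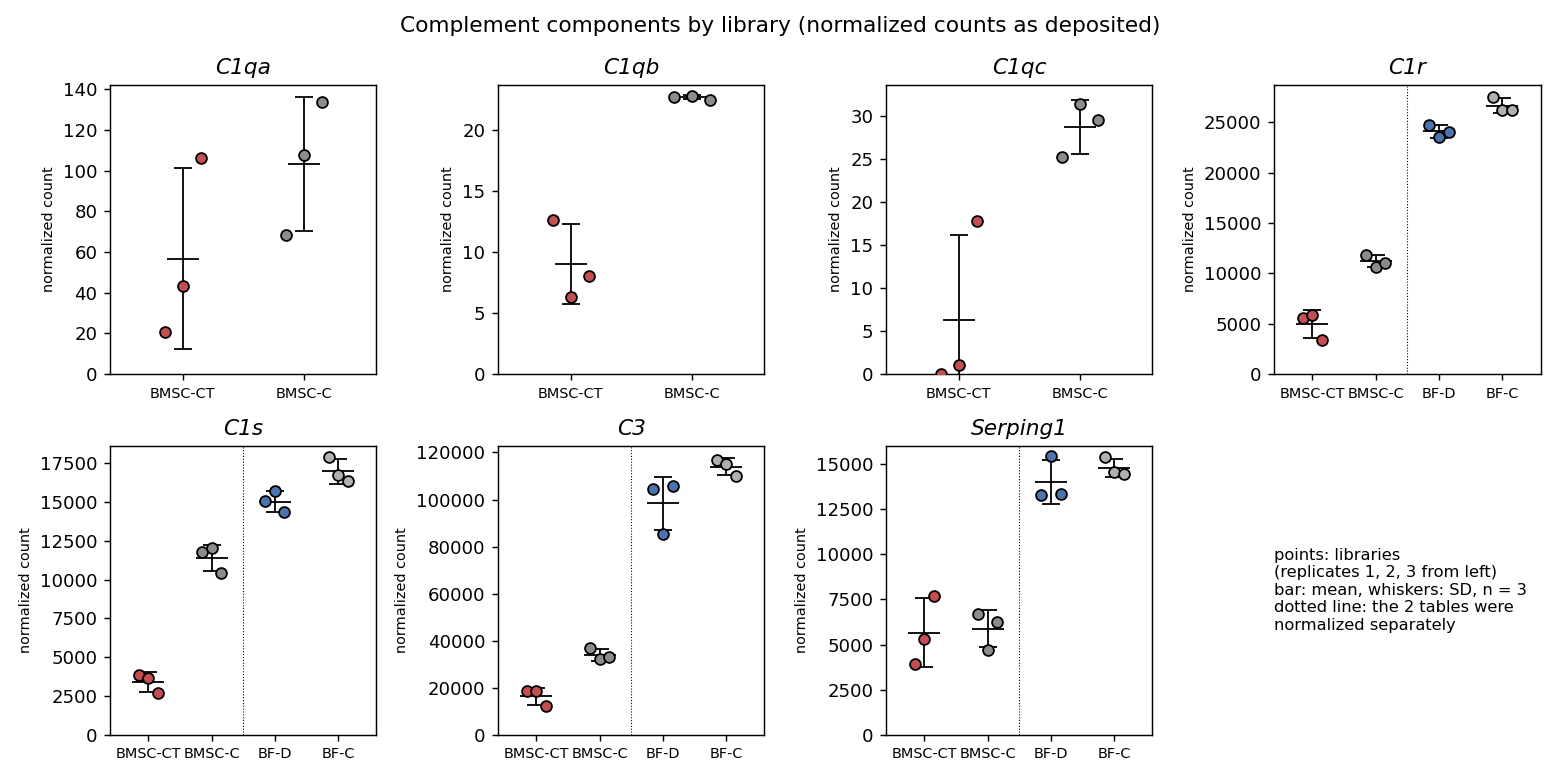
Normalized counts (vertical axis, linear, from 0) of each gene in the libraries of BMSC-CT, BMSC-C, BF-D and BF-C; points are libraries, bars the mean and whiskers the SD of 3. C1r, C1s and C3 of BMSC-CT lie below all BMSC-C libraries, Serping1 overlaps on this scale, and C1qa and C1qc of BMSC-CT replicate 3 (106 and 17.7) lie above those of the other BMSC-CT libraries.

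The sequences before the starts of C1r and C3 are shown because these genes were called lower together; each is the 250 bases upstream of the start in RefSeq's promoter table (build GRCr8), which held 4 of the 8 genes. Capitals mark matches, on either strand, to 7 motifs, most of them of factors linked to inflammatory and myeloid gene control. The others searched were a SMAD motif and the TATA box.
C1r, chr4:159098763-159099012, plus strand: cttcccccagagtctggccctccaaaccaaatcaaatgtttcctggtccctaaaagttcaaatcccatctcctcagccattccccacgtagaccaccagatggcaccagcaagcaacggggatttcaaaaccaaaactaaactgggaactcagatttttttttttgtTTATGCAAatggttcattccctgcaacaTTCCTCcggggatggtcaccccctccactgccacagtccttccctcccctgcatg
C3, chr9:2201340-2201589, minus strand: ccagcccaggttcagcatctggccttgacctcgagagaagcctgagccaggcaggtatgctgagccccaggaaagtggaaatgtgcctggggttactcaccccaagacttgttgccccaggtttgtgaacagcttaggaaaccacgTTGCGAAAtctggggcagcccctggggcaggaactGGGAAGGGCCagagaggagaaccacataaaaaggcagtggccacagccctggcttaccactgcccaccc
Both hold a C/EBP motif, TTGCNNAA, which lies 83 to 76 bases before the start of C1r on the reverse strand and 104 to 97 bases before the start of C3. Of all 33469 promoter windows of the same length, 9.22% hold that motif on either strand. The windows of C1qa and C1qb, also in the promoter table, have no match to it, and C1s had no window. C1r also holds the PU.1 motif GAGGAA on the reverse strand, found in 23.3% of windows, and C3 an NF-kappaB motif (GGGA, any 4 bases, then CC), found in 16.4%. The STAT motif TTCNNNGAA, the ISRE (GAAA, any 2 bases, then GAAA), the SMAD motif GTCTAGAC and the TATA box TATAAA had no match in either window, and no match overlapped another. Such matches describe letters, not occupied sites.

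Serping1, the C1 inhibitor, had 3950, 5291 and 7704 normalized counts in BMSC-CT and 6685, 4700 and 6270 in BMSC-C. The groups overlapped and the treated libraries spread widely on that scale, in which 1 read of BMSC-CT replicate 3 counts for 1.61. In RPM, reads per 1000000 reads, Serping1 had 247, 306 and 277 in BMSC-CT, against 459, 326 and 412 in BMSC-C, and these did not overlap. Its log2 fold change was -0.10, with a 95% interval from -0.82 to 0.62 (limma adjusted p 0.824). With scaling to total reads it was -0.52 and again not called (limma adjusted p 0.123). The sign turned without BMSC-CT replicate 1 (0.13) and without BMSC-C replicate 1 (0.00). Set against its target proteases within each library, per gene length, Serping1 was 1.26, 1.68 and 3.84 times the mean of C1r and C1s in BMSC-CT, against 0.865, 0.635 and 0.890 times in BMSC-C. All BMSC-CT ratios were above all BMSC-C ratios, the highest of them in replicate 3. The values of that library fell with gene length, and Serping1, at 1889 bases, is shorter than C1r (2770) and C1s (3018). No ratio was computed with that trend removed.

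The proteases were also set against each other and against C3. Per length, C1s was 0.635, 0.566 and 0.721 times C1r in BMSC-CT, against 0.911, 1.03 and 0.867 times in BMSC-C. C3 was 2.77, 2.99 and 2.66 times C1s in BMSC-CT, against 1.82, 1.55 and 1.85 times in BMSC-C. Neither ratio overlapped between the groups, and BMSC-CT replicate 3 lay close to the other treated libraries in the C3 to C1s ratio. A two-sided exact permutation test gave a p of 0.1 for each of these 3 ratios, that of Serping1 included. That is the smallest that 3 against 3 libraries allow. Groups that do not overlap always give it, so the test adds nothing to the values above.

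The C1q chains were rare. C1qa had 20.8, 43.3 and 106 normalized counts in BMSC-CT, against 68.3, 107 and 133 in BMSC-C. Replicate 3 of BMSC-CT reached into the control range on that scale, though not in RPM (3.82, against at least 4.69 in BMSC-C). The log2 fold change of -1.10 (95% interval -2.60 to 0.41) did not pass (limma adjusted p 0.234). C1qb had 12.7, 6.33 and 8.05 normalized counts in BMSC-CT, against 22.8, 22.8 and 22.5 in BMSC-C. Those groups were apart, but the log2 fold change of -1.29 missed the threshold (limma adjusted p 0.0757). C1qc was seen with 0, 1 and 11 reads in BMSC-CT, against 31, 37 and 34 reads in BMSC-C. The groups were again apart, and the log2 fold change on the log2(count + 1) scale was -3.13 (95% interval -5.68 to -0.58, limma adjusted p 0.0831). Of the 7 genes, 5 had groups that did not overlap, with BMSC-CT lower in each; the same held in that direction for 28.9% of all genes tested. In RPM it was all 7 genes, and 36.9% of all genes tested.

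Leaving out BMSC-CT replicate 3 changed the calls of the C1q chains. Without it the log2 fold change of C1qa was -1.69 (adjusted p 0.0107), that of C1qb -1.24 (0.0400) and that of C1qc -4.37 (0.000307), all by limma. C1r (-0.96, 0.000980), C1s (-1.60, 7.42e-05) and C3 (-0.87, 0.00353) stayed called, and Serping1 was at -0.35 (0.187). That made 6 of 7 lower, in a fit that called 43.0% of 16742 genes, 23.5% as lower and 19.5% as higher. C1qc was also called with scaling to total reads (adjusted p 0.0469) and after removal of the length trend (0.0418), and C1qb by DESeq2 on the recovered reads (0.0488). Over the same BMSC-CT and BMSC-C libraries, 5 of the 15 macrophage markers tested were called higher and 3 lower. Those lower were Cd163 (log2 fold change -3.68), Cd74 (-2.82) and Adgre1 (-1.50), and those higher Csf1r (2.12), Cd68 (1.81), Spi1 (1.72), Lyz2 (1.41) and Laptm5 (1.22). With Lyz2 their summed share was higher in every BMSC-CT library than in any BMSC-C library. Without it the share was lower in every one, as given above. Adgre1 was the highest of the remaining markers in BMSC-C, and no share without both was computed. The part of the cell mix in these results was not tested.

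**Figure D2:**
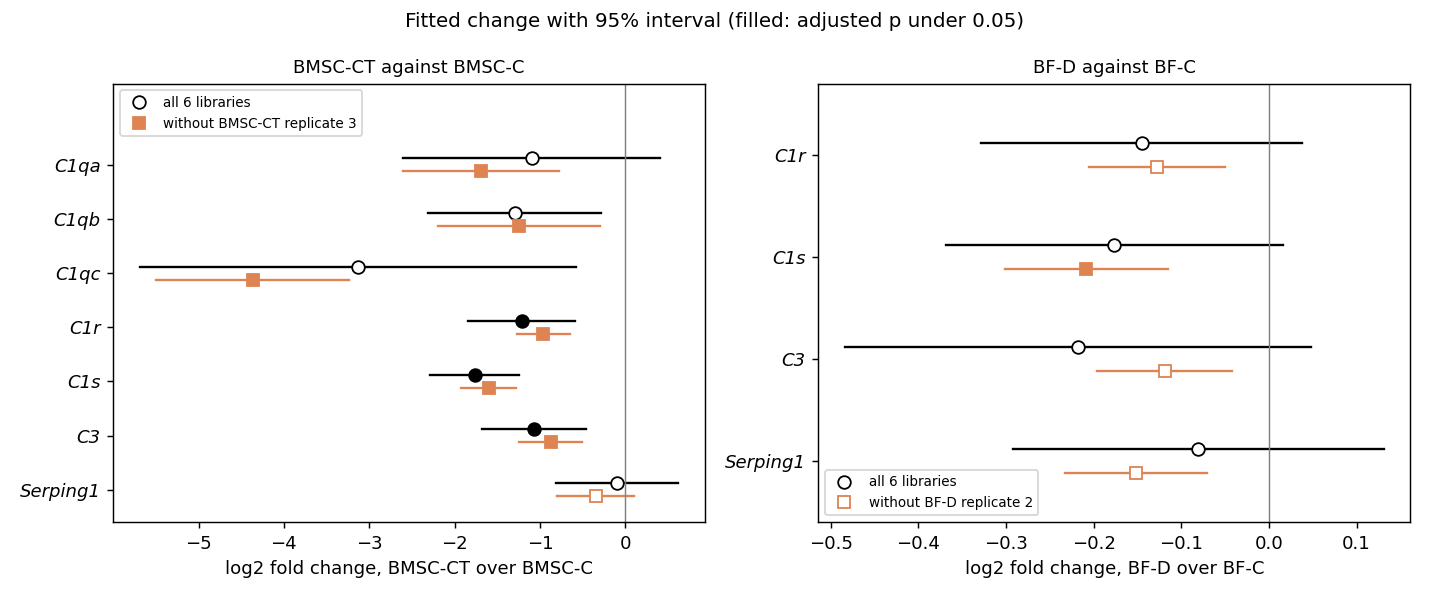
Log2 fold changes (horizontal axis) with 95% intervals by limma, for BMSC-CT over BMSC-C (left) and BF-D over BF-C (right); circles use all 6 libraries, squares leave out the library that stood apart, and filled symbols have an adjusted p under 0.05. C1s is at -1.76 with all BMSC libraries and -1.60 without BMSC-CT replicate 3, whereas C1qa moves from -1.10 to -1.69, and the right axis spans a far smaller range.

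In the cells labelled fibrotic, no complement component passed the test after docetaxel. C1r, C1s and C3 had values slightly below those of every control library, and Serping1 overlapped. None of the 4 genes listed was called by limma, edgeR or DESeq2, and 0 had an unadjusted limma p under 0.05. Among all 17076 genes tested limma called 2, or 0.0117%, with 1058 (6.20%) at an unadjusted p under 0.05, while edgeR called 2 and DESeq2 72. All 4 log2 fold changes were below 0, with a median of -0.16 against 0.00 over all genes. Of the 10 mesenchymal markers 8 were below 0 as well, with a median of -0.28 and 0 called; their part in these values was not tested.

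C3 had 104318, 85431 and 105590 normalized counts in BF-D, against 116978, 115040 and 109983 in BF-C. The groups did not overlap, and BF-D replicate 2 was the lowest. The log2 fold change was -0.22 (95% interval -0.48 to 0.05, limma adjusted p 0.706). C1s had 15061, 15698 and 14337 normalized counts in BF-D, against 17871, 16767 and 16327 in BF-C. Its groups were apart too, at a log2 fold change of -0.18 (95% interval -0.37 to 0.02, limma adjusted p 0.706).

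C1r had 24762, 23530 and 24015 normalized counts in BF-D, against 27520, 26220 and 26212 in BF-C, a log2 fold change of -0.14 (95% interval -0.33 to 0.04, limma adjusted p 0.706). Serping1 had 13259, 15426 and 13359 in BF-D, against 15369, 14551 and 14440 in BF-C, and these overlapped (log2 fold change -0.08, 95% interval -0.29 to 0.13, limma adjusted p 0.774). Thus C1r, C1s and C3 were lower in every BF-D library than in any BF-C library, as were 9.04% of all genes tested. The lower ends of the 4 intervals ran from -0.48 to -0.29 on the log2 scale. Without BF-D replicate 2, C1s alone was called, at a log2 fold change of -0.21 (limma adjusted p 0.0329), in a fit that called 1.54% of 17139 genes. In that fit C3 was at -0.12 (0.162), C1r at -0.13 (0.129) and Serping1 at -0.15 (0.0803). At an unadjusted limma p under 0.05, all 4 genes were lower there. Of the 17139 genes, 1095 were lower and 898 higher by that measure.

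Levels were then set side by side as RPKM, reads per kilobase of gene and 1000000 reads, computed from the recovered reads and the authors' gene lengths. The BMSC and BF tables were normalized separately, so no test was made between them. C3 had the highest mean level per length of these genes in each group, at 172 ± 75.6 in BMSC-CT, 446 ± 36.6 in BMSC-C, 1149 ± 134 in BF-D and 1310 ± 34.8 in BF-C (mean ± SD, n = 3 each, RPKM). It ranked between 30 and 33 among all genes per length in the BF-C libraries and between 34 and 70 in BF-D, against 174 to 217 in BMSC-C and 402 to 1165 in BMSC-CT. The RPKM of C1r was 98.0 ± 46.5 in BMSC-CT, 274 ± 17.1 in BMSC-C, 527 ± 12.9 in BF-D and 573 ± 14.6 in BF-C.

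Serping1 followed a similar order, at 146 ± 15.7 in BMSC-CT, 211 ± 35.7 in BMSC-C, 449 ± 38.6 in BF-D and 467 ± 14.5 in BF-C, and its 2 BF groups overlapped. C1s differed least between the control groups, at 60.7 ± 25.4 in BMSC-CT, 257 ± 26.0 in BMSC-C, 302 ± 12.5 in BF-D and 335 ± 14.4 in BF-C. For C1r, C1s and C3 the libraries of the 4 groups followed each other without overlap, from BMSC-CT through BMSC-C and BF-D to BF-C. In RPM, 36.9% of all genes tested were lower in every BMSC-CT than in any BMSC-C library. For BF-D against BF-C that share was 7.19%. No share of all genes was computed for the whole order seen in C1r, C1s and C3. Marker shares differed between the tables as well. Mesenchymal markers took 0.454% to 0.508% of reads in BMSC-C and 6.12% to 6.35% in BF-C. Macrophage markers took 0.891% to 1.06% in BMSC-C and 0.00835% to 0.00875% in BF-C. The part of the cell mix in the order of the groups was not tested. BMSC-CT replicate 3 was the lowest library for each of C1r, C1s and C3. The C1q chains lay far below, with C1qa at 1.24 to 3.64 RPKM in BMSC-CT and 4.47 to 8.36 in BMSC-C. C1qb was at 0.445 ± 0.250 RPKM in BMSC-CT and 1.42 ± 0.0513 in BMSC-C, and C1qc at 0.213 ± 0.322 in BMSC-CT and 1.78 ± 0.202 in BMSC-C (mean ± SD, n = 3 each).

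In sum the genes listed took 0.0942% to 0.199% of all reads in BMSC-CT, 0.402% to 0.462% in BMSC-C, 0.847% to 0.958% in BF-D and 1.00% to 1.06% in BF-C. The mean of C1r and C1s per length was 25.5 to 157 times the mean of the C1q chains in BMSC-CT and 63.9 to 112 times in BMSC-C. The 2 proteases kept a near constant proportion in the BF libraries, where C1s was 0.558, 0.612 and 0.548 times C1r in BF-D and 0.596, 0.587 and 0.572 times in BF-C. Serping1 was 1.01, 1.19 and 1.05 times their mean in BF-D and 1.03 times in all BF-C libraries.

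**Figure D3:**
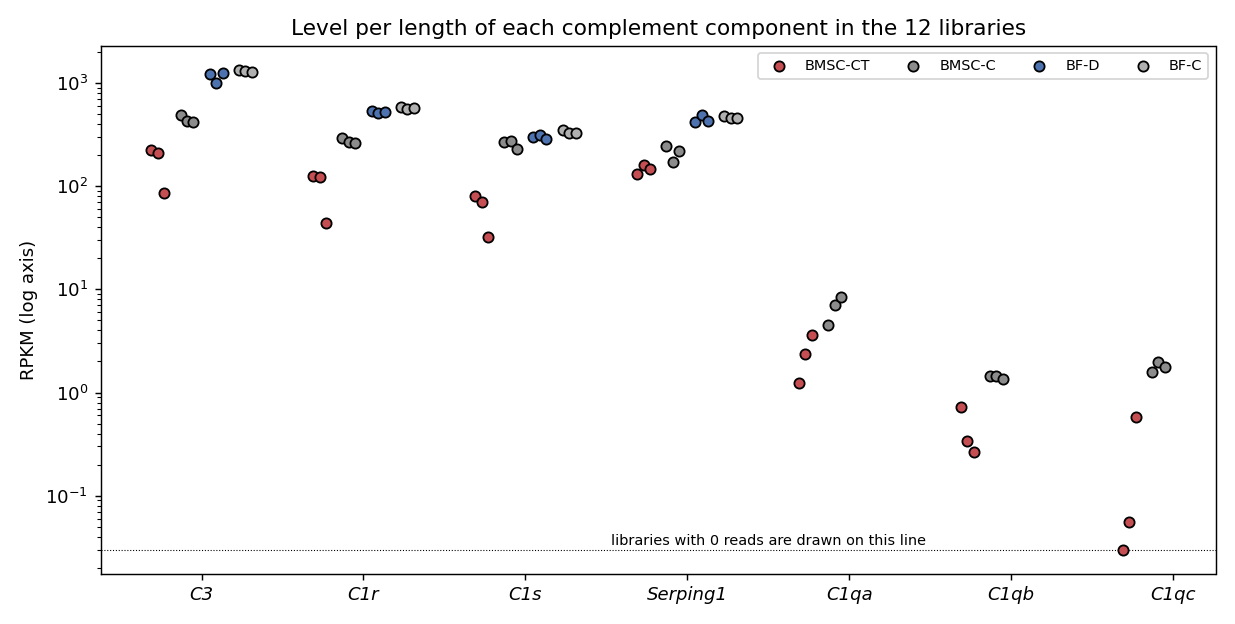
RPKM (reads per kilobase of gene and 1000000 reads, log axis) of each gene in every library of BMSC-CT, BMSC-C, BF-D and BF-C, 1 point a library; C1qa, C1qb and C1qc have BMSC libraries only. C3 averages 172, 446, 1149 and 1310 in that order of groups, and the C1q chains stay below 10.

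Other genes of the system were taken from a list of 46 symbols. For BMSC-CT against BMSC-C, 31 were tested, of which 3 were called higher, 4 lower and 24 neither, with a median log2 fold change of 0.00. The 7 calls are a share near the 18.6% of all genes, and 8 higher and 9 lower had an unadjusted p under 0.05, against 17.0% and 21.6% of all genes. Among 12 genes of initiation and the convertases, 3 were lower and 0 higher (10.9% and 7.70% of all genes), while 2 higher and 5 lower had an unadjusted p under 0.05. Masp1, a protease of the lectin branch, had 62.4, 50.7 and 1.61 normalized counts in BMSC-CT, against 1486, 1160 and 1229 in BMSC-C. That is a log2 fold change of -5.97 (SE 1.18, limma adjusted p 0.0198). Masp2, which cleaves C4 and C2 in the lectin branch, had 0, 2.11 and 1.61 in BMSC-CT, against 25.2, 19.5 and 19.9 in BMSC-C (-3.48, limma adjusted p 0.0109). Colec12, a scavenger receptor with a collectin domain, was lower by a log2 fold change of -1.44 (limma adjusted p 0.0328).

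Against these shares of all genes, 1 of 5 membrane regulators, which shield cells from complement, was lower and 0 higher, or 1 in each direction by unadjusted p. Cd55, which speeds the decay of C3 convertases, had 164, 148 and 98.2 normalized counts in BMSC-CT, against 9940, 8088 and 6191 in BMSC-C. Its log2 fold change of -5.88 (SE 0.29, limma adjusted p 0.000227) was larger in size than that of any of the 7 genes above. Of 4 fluid-phase regulators, 1 was higher: Cfi, the protease that degrades C3b, had 151, 154 and 96.6 normalized counts in BMSC-CT, against 35.0, 35.5 and 11.3 in BMSC-C (log2 fold change 2.39, limma adjusted p 0.0273). Clu, an inhibitor of the lytic complex, was at -1.19 and was not called (limma adjusted p 0.0584). None of the 2 terminal pathway genes tested was called or had an unadjusted limma p under 0.05.

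Of 8 receptors, 2 were higher and 0 lower, against 7.70% and 10.9% of all genes, or 3 and 1 by unadjusted p, against 17.0% and 21.6%. Vsig4, a macrophage receptor for C3b, had 101, 96.0 and 137 normalized counts in BMSC-CT, against 6.50, 16.9 and 13.0 in BMSC-C, a log2 fold change of 3.17 (SE 0.45, limma adjusted p 0.00682). C5ar1, the C5a receptor of myeloid cells, had 3776, 4264 and 3528 in BMSC-CT, against 1801, 1745 and 2379 in BMSC-C (0.97, limma adjusted p 0.0240). Both are carried by macrophages, whose markers moved in both directions, as given above. The markers summed higher in BMSC-CT with Lyz2 and lower without it. Adgre1, the highest of the others in BMSC-C, averaged 46426 normalized counts there, against 17359 in BMSC-CT. A link of the 2 receptors to the macrophage markers was not tested.

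The calls of Cd55 and Vsig4 stood in every fit that left out a library, with adjusted p up to 0.00632 and 0.0353. Those of Masp2, Masp1, C5ar1, Cfi and Colec12 were each lost without at least 1 library, at adjusted p up to 0.0654, 0.0949, 0.125, 0.0925 and 0.136. Without BMSC-CT replicate 3 the count was 8 higher and 10 lower of 31, in the fit that called 19.5% and 23.5% of all genes. Without BMSC-CT replicate 2 it was 4 in all, and without BMSC-C replicate 1, 2 or 3 it was 2, 2 and 4, in fits that called 7.31%, 4.77%, 4.39% and 7.48% of all genes in that order. With scaling to total reads, which moves the median of all genes by -0.40, C5ar1 (0.55, adjusted p 0.226), Cfi (1.98, 0.0806) and Colec12 (-1.86, 0.0581) were not called.

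**Figure D4:**
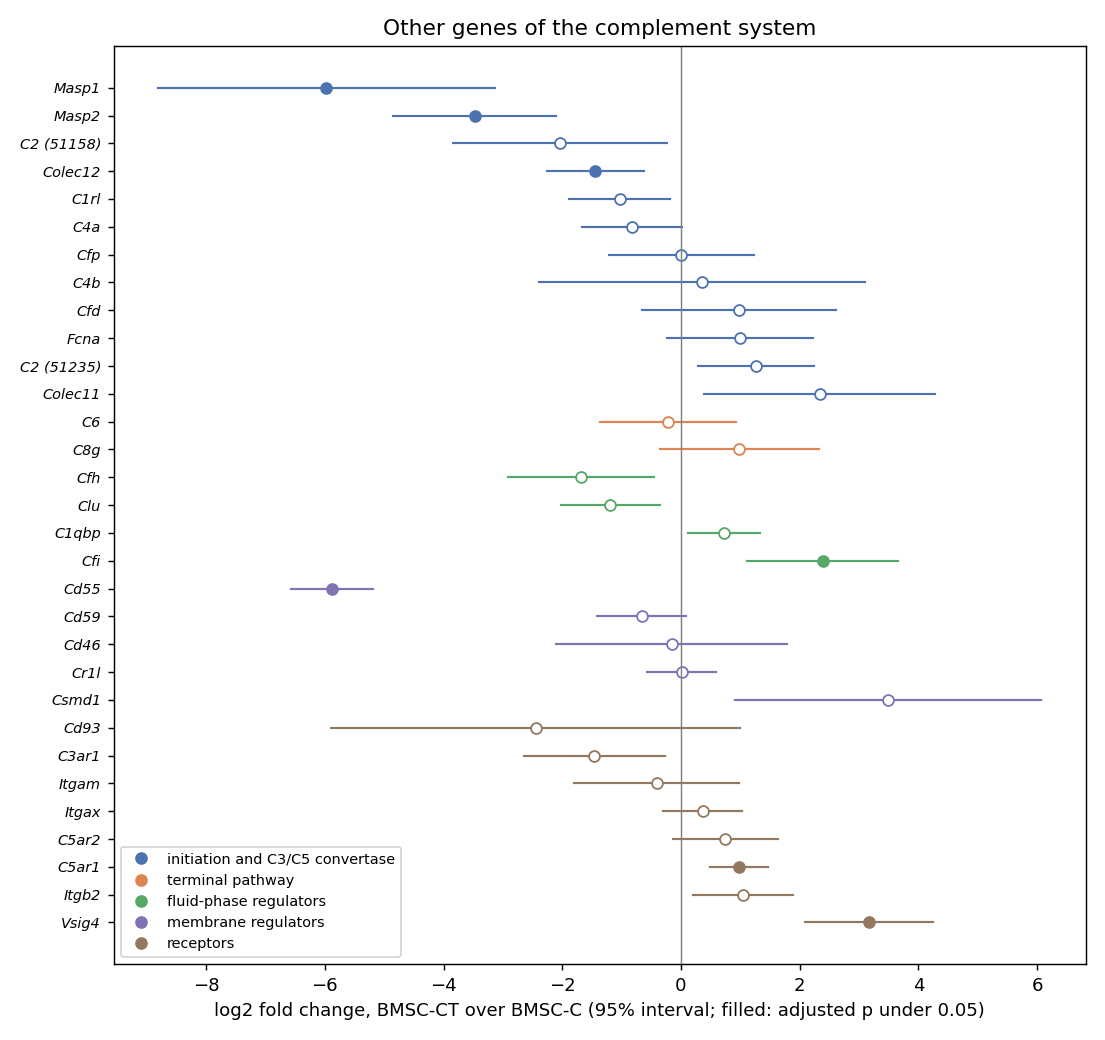
Log2 fold change (horizontal axis, 95% interval by limma) of the 31 other complement genes tested for BMSC-CT over BMSC-C, grouped by role in colour; filled points have an adjusted p under 0.05. Cd55 at -5.88 and Masp1 at -5.97 lie farthest to the left of 0, and Vsig4 at 3.17 is the called gene farthest to the right.

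For BF-D against BF-C, 37 of these genes were tested and limma called 0, while 4 had an unadjusted p under 0.05, 2 in each direction. edgeR called 0 and DESeq2 2. C6, a part of the lytic complex, had 468, 486 and 451 normalized counts in BF-D, against 727, 661 and 698 in BF-C, and Itgb2, the shared chain of the C3 fragment receptors, had 57.5, 45.6 and 96.4 in BF-D, against 20.3, 11.7 and 21.6 in BF-C. Both pairs of groups were apart, with log2 fold changes of -0.57 and 1.81 and limma adjusted p of 0.373 and 0.413. They were called by DESeq2 (adjusted p 0.00429 and 0.00678) and by limma without BF-D replicate 2 (0.00115 and 0.0126). The next genes by adjusted p were C2 (ENSRNOG00000051158), Colec12, C5ar2, C4b, C4a (ENSRNOG00000000443) and C4bpa. They had log2 fold changes from -0.62 to 0.50 and a limma adjusted p of 0.706 each. The other row named C4a (ENSRNOG00000047657) was at -1.35 (limma adjusted p 0.713). Each row of a name was counted as a gene tested.

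The name C2 heads 2 rows of each table, and C2 is the gene next to Cfb in RefSeq's rat annotation. ENSRNOG00000051235 had 1899, 2436 and 923 normalized counts in BMSC-CT, against 593, 564 and 925 in BMSC-C, and ENSRNOG00000051158 had 76.9, 98.1 and 12.9 in BMSC-CT, against 192, 164 and 231 in BMSC-C. They lay on opposite sides of 0 (log2 fold changes 1.26 and -2.04), and neither was called (limma adjusted p 0.0736 and 0.0993). Neither row was taken as Cfb. Among protein-coding genes, C1r and C1s neighbour each other on chromosome 4 of the same annotation, and C1qb, C1qc and C1qa follow each other on chromosome 5.

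Signals and factors known to control complement genes were listed as well, 14 in all. For BMSC-CT against BMSC-C, limma called 1 higher, 1 lower and 12 neither, against 7.70% higher and 10.9% lower of all genes. At an unadjusted limma p under 0.05, 1 was higher and 3 lower, against 17.0% and 21.6% of all genes. Il6, the cytokine of the acute phase, had 11.8, 33.8 and 25.8 normalized counts in BMSC-CT, against 5497, 4562 and 4697 in BMSC-C, a log2 fold change of -7.75 (SE 0.39, limma adjusted p 0.000262). Irf8, a factor of myeloid cells, had 423, 421 and 300 in BMSC-CT, against 168, 159 and 185 in BMSC-C (1.14, limma adjusted p 0.0260). It was not called with scaling to total reads (0.72, adjusted p 0.224), nor in 5 of the 6 fits that left out a library (adjusted p 0.0531 to 0.125). Nfkb1 (-0.97) and Stat3 (-0.71) were not called (limma adjusted p at least 0.0988), except without BMSC-CT replicate 3 (0.0143 and 0.0294). For BF-D against BF-C, limma called 0 of 13, edgeR 0 and DESeq2 1. By an unadjusted limma p under 0.05, 2 were higher and 1 lower, against 6.20% of all genes in either direction. The inflammatory cytokine Il1b had 37.3, 55.3 and 44.0 normalized counts in BF-D, against 11.9, 9.61 and 15.7 in BF-C (log2 fold change 1.80, limma adjusted p 0.318). DESeq2 called it (0.00516), as did limma without BF-D replicate 2 (0.0478). Socs3 (-0.28), Il6 (0.25) and Stat3 (-0.20) had a limma adjusted p of 0.706 each.

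Genes whose log2(RPM + 1) ran most like that of C3 over the 12 libraries were St5, Fads2, Amot, Mtmr11 and Gja1, with Pearson r from 0.997 to 0.995 among 8720 genes compared. C1r reached 0.990, Serping1 0.931 and C1s 0.927 with C3. For Serping1 they were Hpx, Maged1, Ass1, Lgi2 and Srpx2, with r from 0.987 to 0.983. The libraries share 4 groups and their depth, so these values describe a common order of groups. Gja1, for example, averaged 108 RPM in BMSC-CT, 460 in BMSC-C, 1249 in BF-D and 1594 in BF-C. C1qa was read in 6 libraries and was not compared in this way.

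In the authors' deposited table, C1s (log2 fold change -1.75, adjusted p 1.64e-10), C1r (-1.17, 0.00114) and C3 (-1.05, 0.00114) passed an adjusted p of 0.05 for BMSC-CT against BMSC-C, while C1qb (-1.31, 0.0544) did not. The authors' deposited table of 9 KEGG terms for that comparison counts 81 changed genes under Phagosome, C3 and C1r among them. Of these 81, 54 rose and 27 fell. The 6 GO terms deposited for it include extracellular region, with 90 changed genes, C3 among them, of which 30 rose and 60 fell. No term in the authors' deposited tables of KEGG or GO terms has complement in its name.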

How the data were processed

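Total RNA of 12 libraries was sequenced after RNeasy extraction and NEBNext Ultra library preparation, per the labels' protocols. Bowtie 0.12.2 and mm8, a mouse build, are named in the submitters' processing notes; the gene IDs are rat, so the rat build is not known, the counting tool and any use of strand are not given in the sources used here, and no coordinates of the files are printed. For each comparison the authors deposited 1 gene table, with a signal value per gene and library that is a normalized count, next to gene lengths and the log2 fold change and p-value that the authors computed. Deposited tables of GO and KEGG terms hold counts of genes. Each normalized count was a whole number of reads times 1 factor per library (100% of values within a tolerance of 0.01), so reads could be recovered; 0 columns were without a sample.

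Because the unit is normalized counts, limma 3.58.1 (R 4.3.3, empirical Bayes with a trend) was fitted to log2(normalized count + 1) in each table apart, leaving out genes whose mean was below 1. The procedure was run on simulated counts for genes with a mean of at least 10, with the same dispersion for every gene. These counts held no library that stood apart and no trend with gene length, so the run does not bear on either. Alternatives were TMM and total-read scaling, no filter or a mean of at least 10, pseudocounts of 0.5 and 5, edgeR 4.0.16 and DESeq2 1.42.0 on recovered reads, a replicate block, removal of each library's trend with gene length (lowess span 0.3), and each library left out.

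The genes, the 13 gene lists (126 symbols) and the tests were chosen with earlier results of these data known, so no list is independent evidence. The rule named all 8 genes and, per comparison, up to 8 other complement genes and 4 inducers with a mean of at least 10 normalized counts and the smallest adjusted p, plus 5 genes most like C3, Serping1 and C1qa. The C2 rows and Gja1's levels were singled out after their values were seen. Neutrophil, lymphocyte, chondrocyte and endothelial markers took at most 0.00274%, 0.0641%, 0.0505% and 0.00863% of reads in any library.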

Additional observations from a re-analysis of the deposited data

How the results depend on the processing

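Of 176 fold changes of the complement components recomputed, 158 kept their direction and their side of the threshold, 9 lost a call and 7 gained one. Serping1 turned sign for BMSC-CT without 1 library, within a range of -0.35 to 0.13 over the libraries left out (0.13 and 0.00 where it turned). For BMSC-CT against BMSC-C, leaving out libraries gave 736 to 7204 called genes against 3134, 1 to 6 complement components against 3, 2 to 18 other complement genes against 7 and 1 to 4 inducers against 2. DESeq2 gave 5504 genes and 16 other complement genes, and removal of the length trend 13 other complement genes. Total-read scaling and the replicate block, under which the adjusted p of Irf8 was 0.0537, each left 1 inducer, Il6. The 3134 calls were 1295 higher and 1839 lower, against 791 and 1985 with total-read scaling, which shifts the median of all genes by -0.40, 2103 and 1804 without the length trend, which shifts it by 0.17, and 2749 and 2755 by DESeq2.

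For BF-D against BF-C, leaving out libraries gave 0 to 264 genes against 2, 0 to 1 complement components against 0, 0 to 2 other complement genes against 0 and 0 to 2 inducers against 0. A mean of at least 10 gave 0 genes, DESeq2 72 and removal of the length trend 11, and DESeq2 called 2 other complement genes and 1 inducer. The cause of these changes was not tested. As a ratio of BF-C over BMSC-C levels, C3 was 2.94, C1r 2.09, C1s 1.30 and Serping1 2.21 in RPM, and 3.77, 2.68, 1.68 and 2.84 in TPM (transcripts per 1000000).

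With replicate numbers as a block, 3 complement components stayed called for BMSC-CT and 0 for BF-D, with 3003 and 0 genes called. Deviations of same-numbered libraries correlated at 0.20, -0.02 and 0.18 for BMSC and at 0.01, 0.02 and 0.00 for BF, so the numbers were not taken as pairs. Depth limits the C1q chains most: 12 reads of C1qc in BMSC-CT, against 102 in BMSC-C, carry its value.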
